A study of Danio rerio with 12 samples.

Results

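The fatty acid binding protein (FABP) genes were followed by RNA sequencing in dissected livers of wild-type TU zebrafish. The 9 genes were taken by symbol from the 32520 genes listed in the deposited table: fabp10a and fabp10b, the liver basic forms, fabp1a, fabp1b.1, fabp2 and fabp6, which are best known from the yolk and the intestine, fabp3 of heart and muscle, fabp7a of brain and fabp11a, the fish relative of the adipocyte form. Adult females and males aged 4 months had been kept for 28 days in water with 10 µg/L bisphenol AF (BPAF) or with 0.0001% dimethyl sulfoxide (DMSO), the solvent of the control fish, and each of the groups female BPAF, female DMSO, male BPAF and male DMSO had 3 libraries, numbered 1 to 3 in the labels. BPAF is an industrial bisphenol in which the methyl groups of bisphenol A are replaced by trifluoromethyl groups. For the BPAF groups the labels give no DMSO level, and an effect of solvent and one of BPAF cannot be told apart. They do not say whether a library is 1 fish or a pool, so p-values measure the spread between libraries, which may be technical.

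FABPs are small cytosolic proteins folded as a barrel around a cavity that holds fatty acids, bile acids or other lipids, and they carry these between membranes, enzymes and nuclear receptors. Vertebrate tissues express different forms. In zebrafish, fabp10a is the abundant form of hepatocytes and its promoter is widely used to drive transgenes there, whereas fabp1b.1 and fabp2 are enterocyte genes and fabp6 encodes the ileal bile acid binding protein, also called gastrotropin. Peroxisome proliferator-activated receptors (PPARs) and hepatocyte nuclear factors control several of these genes in mammals.

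Levels were taken as TPM, abundances per unit of transcript length that are scaled to a fixed total in each library, and the sequencing depth behind them is unknown. Of the listed genes, 11389 reached 1 TPM in at least 3 libraries and were tested on the log2(TPM + 1) scale with limma. Calls were made where p, adjusted by Benjamini-Hochberg over these genes, was under 0.05. Genes at 1 TPM or more numbered 7007 to 9217 per female library and 9108 to 12313 per male library, with the highest number in male BPAF 1. The 17 hepatocyte markers were above 1 TPM in all 12 libraries and summed to between 53539 and 76241 TPM in females and between 143808 and 237287 TPM in males. The most abundant gene was the yolk precursor vtg1 in all 6 female libraries, at 122514 TPM or more. Such transcripts take up part of a fixed total. The tested genes had a median log2 difference of -0.52 between DMSO females and DMSO males, -0.78 between BPAF females and BPAF males and -0.66 over both treatments. The value over both treatments was -0.42 with the 7 vitellogenin genes out of the totals and -0.03 after trimmed-mean scaling, which sets the bulk of genes equal between libraries, and differences between the sexes are read against these shifts.

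The liver form fabp10a (ENSDARG00000038439) was the most abundant of the FABP genes in 12 of 12 libraries and lower in females than in males. It stood at 29240, 24022 and 22387 TPM in female BPAF 1, 2 and 3 and at 19715, 21089 and 21998 TPM in female DMSO 1, 2 and 3. The male values were 36665, 116294 and 90973 TPM under BPAF and 56627, 77840 and 64467 TPM under DMSO. All 6 female values lay below all 6 male values, and male BPAF 1 was the lowest male. How many of all tested genes separated the sexes in this way was not counted. Among all genes of a library, fabp10a ranked between 3 and 6 in females and between 1 and 3 in males, and it was the top gene in 2 of 3 male BPAF libraries and in 1 of 3 male DMSO libraries. The group means were 25216 ± 3579 TPM in female BPAF, 20934 ± 1150 TPM in female DMSO, 81311 ± 40684 TPM in male BPAF and 66311 ± 10726 TPM in male DMSO livers (SD, n = 3 each). Male BPAF was thus the highest and female DMSO the lowest, and the differences between neighbours of the same sex did not pass limma's test (adjusted p = 1 in females and 0.917 in males).

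**Figure D1:**
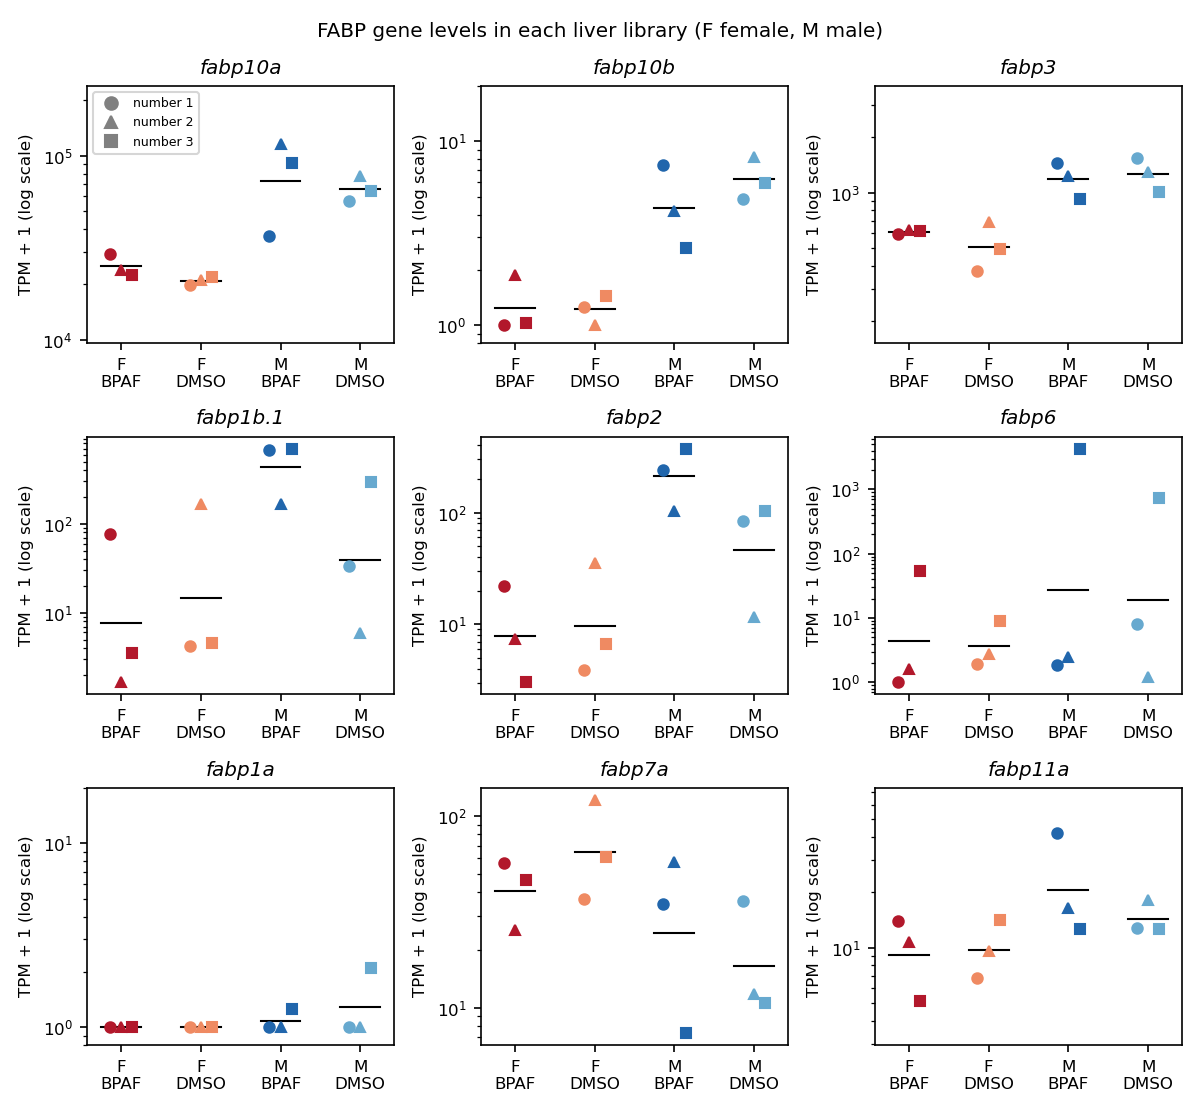
TPM + 1 of each FABP gene (log scale) in the 4 groups, F for female and M for male, with 1 point per library, its shape giving the library's number and the bar the geometric mean of TPM + 1. Only fabp10a, fabp10b and fabp3 have all female points below all male points. Such separation was not counted over all genes, of which 55.4% were called lower in females over both treatments. The points of fabp1b.1, fabp2 and fabp6 are spread widely within groups.

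The sex difference of fabp10a passed in each comparison of females with males on the deposited scale. The log2 difference, female minus male throughout, was -1.65 ± 0.32 among DMSO fish (SE, adjusted p = 0.0064), -1.54 ± 0.32 among BPAF fish (adjusted p = 0.0050) and -1.60 ± 0.23 over both treatments (adjusted p = 0.000304). Over both treatments fabp10a averaged 23075 ± 3340 TPM in the 6 female libraries and 73811 ± 27850 TPM in the 6 male libraries (SD), a ratio of 0.313. Relative to the median gene, the log2 differences were -1.13, -0.76 and -0.94. With the 7 vitellogenin genes taken out of the totals the difference over both treatments was -1.24 (adjusted p = 0.0023), and with trimmed-mean scaling it was -0.66 and no longer passed (adjusted p = 0.148). Leaving out any 1 library kept the call of fabp10a in all 3 comparisons.

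Set against the summed hepatocyte markers of the same library, the values of fabp10a overlapped between the sexes. Its level was 35.0% ± 6.26 of the summed TPM of the 17 hepatocyte markers in females, against 41.4% ± 18.9 in males (SD over 6 libraries, 2-sided exact permutation p = 0.437). Most of that sum was apoa1b and apoa2, so the ratio sets fabp10a mainly against these 2 genes. They stood at 69988 and 108901 TPM in male DMSO 1 and at 18095 and 27114 TPM in female BPAF 1, and apoa2 was the top gene in 3 male libraries. Both were themselves lower in females, at no more than 20328 and 28933 TPM. The lowest of the 12 values, 18.7%, was in male BPAF 1, and the highest, 63.3% and 62.9%, were in male BPAF 3 and 2. In females this ratio was 38.4%, 44.9% and 37.3% in BPAF 1, 2 and 3 and 30.8%, 29.6% and 29.1% in DMSO 1, 2 and 3. The groups did not overlap, at an exact permutation p of 0.1, the smallest that 3 against 3 allow. Its marker sums were 76241, 53539 and 59944 TPM in female BPAF 1, 2 and 3 and 64096 to 75540 TPM in female DMSO libraries. In males the ratio was 48.3% ± 25.7 under BPAF and 34.5% ± 9.53 under DMSO, with overlap (SD, n = 3 each, exact permutation p = 0.4). This ratio was computed after the values had been seen.

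The duplicate fabp10b (ENSDARG00000091101), also a liver basic form by name, was near the lower end of measurement and found almost only in males. It had 0, 0.87 and 0.03 TPM in female BPAF livers and 0.26, 0 and 0.44 TPM in female DMSO livers. Male BPAF livers had 6.4, 3.16 and 1.63 TPM and male DMSO livers 3.83, 7.27 and 4.97 TPM. The sexes did not overlap, and since fabp10b reached 1 TPM in 6 libraries, all male, it entered the test only through the sex in which it was higher, so its test has no weight and its differences are given as a description. The log2 difference was -2.35 ± 0.38 among DMSO fish, -1.80 ± 0.38 among BPAF fish and -2.07 ± 0.27 over both (SE). After trimmed-mean scaling it was -2.02 among DMSO fish, -1.22 among BPAF fish and -1.62 over both.

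The heart and muscle form fabp3 (ENSDARG00000023290) was the FABP gene of rank 2 in 11 of 12 libraries and was also lower in females. Female BPAF livers had 597, 626 and 614 TPM and female DMSO livers 373, 692 and 495 TPM. In males, BPAF livers had 1454, 1231 and 918 TPM and DMSO livers 1544, 1289 and 1000 TPM. All females thus lay below all males, a separation that was not counted over all genes. The log2 difference was -1.32 ± 0.26 among DMSO fish (SE, adjusted p = 0.0067), -0.94 ± 0.26 among BPAF fish (adjusted p = 0.0149) and -1.13 ± 0.19 over both (adjusted p = 0.000613). Relative to the median gene these were -0.80, -0.17 and -0.48. With trimmed-mean scaling no fabp3 difference passed, at -0.57 among DMSO fish (adjusted p = 0.160) and -0.19 over both (adjusted p = 0.427), and among BPAF fish the sign turned, to 0.18 (adjusted p = 0.685).

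Heart transcripts were highest in 2 male libraries. The 15 heart and skeletal muscle markers other than the myoglobin gene mb summed to 750 TPM in male BPAF 1 and 75.8 TPM in male DMSO 1, to between 2.39 and 12.4 TPM in the other 4 male libraries, and to at most 1.04 TPM in females. The heart genes myl7 and nppa led them, with 278 and 179 TPM in male BPAF 1. The listed marker mb, left out of these sums, was at 15.8 to 33.7 TPM in females. It was at 273 TPM in male BPAF 1 and at 26.5 TPM in male DMSO 1, within the female range. With mb the sums were 15.8 to 33.9 TPM in females, 1023 TPM in male BPAF 1 and 102 TPM in male DMSO 1. Male BPAF 1 and male DMSO 1 had the highest fabp3 of their groups, at 1454 and 1544 TPM. Of these 2, male BPAF 1 had the higher marker sum and male DMSO 1 the higher fabp3, 1 library against 1, which decides nothing. Without both of them fabp3 stood at -1.17 among DMSO fish (adjusted p = 0.0259) and -0.98 over both treatments (adjusted p = 0.0044), and at -0.79 among BPAF fish, which missed the threshold (adjusted p = 0.0583). Leaving out male BPAF 1 alone also ended the fabp3 call among BPAF fish (adjusted p = 0.0593). On the log2(TPM + 1) scale fabp3 correlated with the mean of these 15 markers at r = 0.566 within the 6 male and -0.266 within the 6 female libraries. With the mean of the hepatocyte markers r was 0.853 in males and 0.305 in females. Correlations over 6 libraries cannot tell these sources apart. The part of heart tissue in the fabp3 values of male BPAF 1 and male DMSO 1 was not tested.

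**Figure D2:**
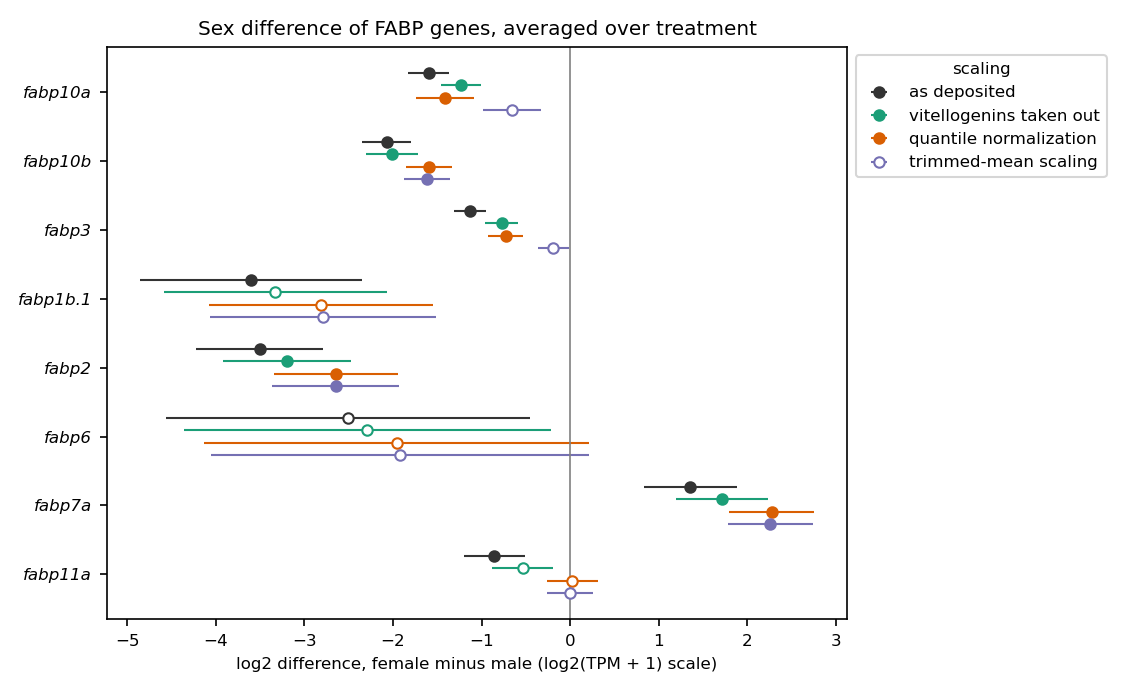
Female minus male log2 difference of each tested FABP gene over both treatments, with the standard error, under 4 scalings of the same table. Filled points have an adjusted p under 0.05. fabp10a, fabp3 and fabp11a move to smaller differences with trimmed-mean scaling, at -0.66, -0.19 and about 0, while fabp2 and fabp7a keep filled points under all 4 scalings. The points of fabp10b are a description, since it was tested only through its male values.

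Counted over the family, 8 of the 9 genes were tested, and the counts include fabp10b, whose calls support nothing for the reason given above. Among DMSO fish, 3 of the 8 were lower in females (fabp10a, fabp10b and fabp3) and 0 were higher, where 23.3% of all tested genes were called, 21.2% lower and 2.1% higher. Single libraries moved that number of called genes, from 2655 to 909 without female DMSO 1, 1277 without male DMSO 1, 1447 without male DMSO 2 and 1591 without female DMSO 3. Among BPAF fish, 5 of 8 were lower (the same 3 genes with fabp1b.1 and fabp2) against 45.7% of all tested genes, and 0 were higher against 1.91%, of 47.6% called in all, and the 5424 genes called became 2919 without female BPAF 3 and 3114 without male BPAF 1. Over both treatments, 6 of 8 were lower, fabp11a being added, against 55.4%, and 1 of 8, fabp7a, was higher against 3.94%, of 59.4% called in all. These counts are a description of the members beside shares this large among all genes.

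Trimmed-mean scaling evened out the directions among all genes and left fewer FABP genes called. Among DMSO fish fabp10b was lower and fabp7a higher in females, 1 of 8 each, where 9.11% of all genes were called, 4.32% lower and 4.79% higher. Among BPAF fish 0 of 8 were called, where 6.09% of all genes were, 2.5% lower and 3.59% higher. Over both treatments fabp10b and fabp2 were lower and fabp7a was higher, where 27.2% of all genes were called, 13.7% lower and 13.5% higher. Quantile normalization, which gives every library the same distribution, called fabp10b lower and fabp7a higher among DMSO fish, with 8.17% of all genes called, 3.93% lower and 4.23% higher. Under it fabp2 was the 1 member called among BPAF fish, lower in females, with 5.83% of all genes called, 2.74% lower and 3.09% higher. Over both treatments it called fabp10a, fabp10b, fabp3 and fabp2 lower and fabp7a higher, with 27.6% of all genes called, 14.1% lower and 13.4% higher.

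The enterocyte genes fabp1b.1 and fabp2 varied widely between libraries of 1 group. For fabp1b.1 (ENSDARG00000059227), female BPAF livers had 76.3, 0.65 and 2.55 TPM and female DMSO livers 3.18, 164 and 3.62 TPM. Male BPAF livers had 676, 167 and 698 TPM and male DMSO livers 32.1, 4.95 and 296 TPM. The high females were BPAF 1 and DMSO 2, and the values over all libraries ran between 0.65 and 698 TPM. For fabp2 (ENSDARG00000006427), which binds long-chain fatty acids in the enterocyte, female BPAF livers had 21.1, 6.41 and 2.02 TPM and female DMSO livers 2.86, 34.2 and 5.59 TPM. In males the values were 238, 103 and 372 TPM under BPAF and 83.2, 10.7 and 101 TPM under DMSO. The same 2 female libraries were high, and among BPAF fish all females lay below all males for both genes. Such separation was not counted over all genes.

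On the deposited scale fabp2 was lower in females, with log2 differences of -4.73 ± 1.01 among BPAF fish (SE, adjusted p = 0.0054) and -3.50 ± 0.72 over both treatments (adjusted p = 0.0020), and its -2.27 ± 1.01 among DMSO fish did not pass (adjusted p = 0.116). Without male DMSO 2, the lowest male, the DMSO difference of fabp2 passed narrowly (adjusted p = 0.0497). fabp1b.1 differed by -5.81 ± 1.77 among BPAF fish (adjusted p = 0.0211) and by -3.60 ± 1.25 over both (adjusted p = 0.0269), and by -1.40 ± 1.77 among DMSO fish (adjusted p = 0.573). After trimmed-mean scaling fabp2 passed over both treatments (-2.65, adjusted p = 0.0203) and just missed among BPAF fish (-3.70, adjusted p = 0.0551), and fabp1b.1 passed in neither (adjusted p = 0.120 and 0.123). The call of fabp1b.1 over both treatments was lost when female BPAF 2 or 3, female DMSO 1 or 3, male BPAF 1 or male DMSO 3 was left out (adjusted p between 0.0563 and 0.0650), and that among BPAF fish without female BPAF 2 or 3 or male BPAF 1 (adjusted p between 0.0671 and 0.0759). In these bulk samples, fewer cells of a type and less RNA per cell cannot be told apart.

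Intestinal marker transcripts varied across libraries together with fabp1b.1 and fabp2. The 13 intestinal markers other than apoa4b.1 summed to 29.4, 3.25 and 2.29 TPM in female BPAF livers and 2.6, 68.9 and 2.65 TPM in female DMSO livers. They summed to 198, 99.4 and 659 TPM in male BPAF livers and 55.6, 10.1 and 193 TPM in male DMSO livers. The marker apoa4b.1 was set apart after its values had been seen, since at 238 to 1420 TPM it outweighed the rest and was high in every library. The sum of fabp1b.1 and fabp2 was between 4.57 and 1070 TPM, and its ratio to the 13 markers was between 2.0 and 3.48 in females and between 1.55 and 4.61 in males. The gene chia.2 made up 362 of the 659 TPM of these markers in male BPAF 3 and 36.4 of the 68.9 TPM in female DMSO 2. In the 4 low female libraries chia.2 was at 0.37 TPM or less, and the marker sums there were 3.25 TPM or less. Defining enterocyte genes such as the microvillus gene vil1 and the brush-border peptidase gene mep1b were at or below 0.2 TPM in the 4 low female libraries and at 50.8 and 20.02 TPM in male BPAF 3. All 12 tested intestinal markers were lower in females over both treatments on the deposited scale, beside 55.4% of all tested genes. After trimmed-mean scaling 4 were, beside 13.7% of all tested genes. Apart from apoa4b.1, each of these markers reached 1 TPM in fewer than 3 female libraries. They entered the test only with the help of male libraries, where they were higher, so these counts have no weight and are a description. The part of intestinal tissue in the values of fabp1b.1 and fabp2 was not tested.

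**Figure D3:**
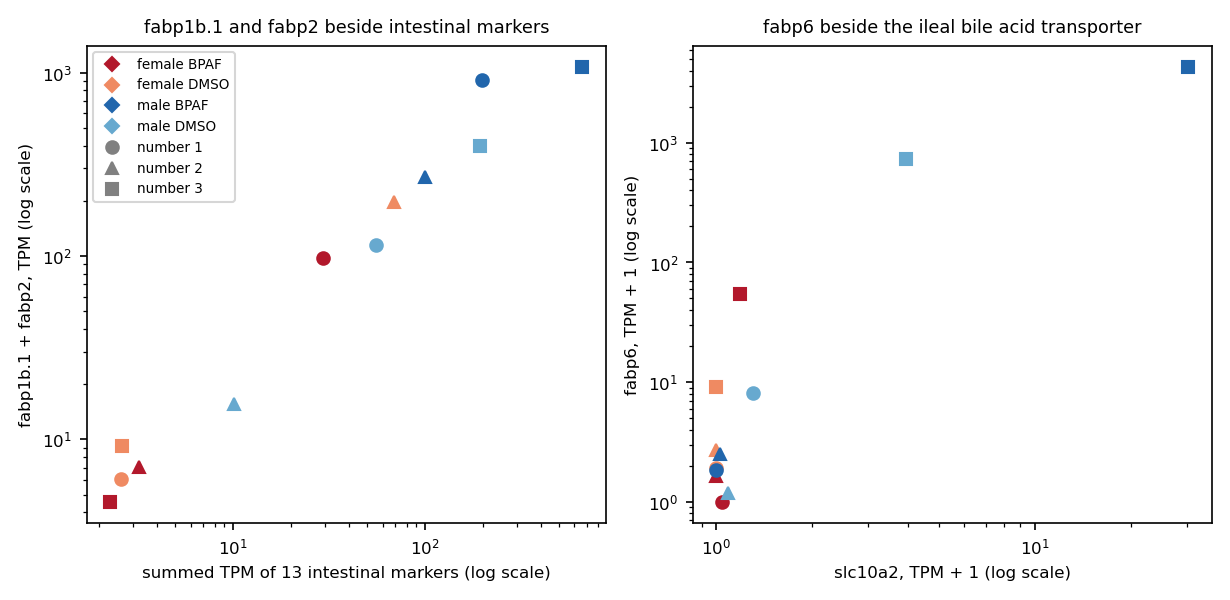
Left, the summed TPM of fabp1b.1 and fabp2 against the summed TPM of 13 intestinal markers, and right, TPM + 1 of fabp6 against that of slc10a2, with 1 point per library and log scales on all axes. The points at left run along 1 diagonal from 4.57 to 1070 TPM, and at right male BPAF 3 and male DMSO 3 stand apart from the other 10 libraries.

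The ileal form fabp6 (ENSDARG00000044566) was highest in a pair of male libraries. It had 0, 0.63 and 53.0 TPM in female BPAF livers and 0.92, 1.71 and 8.13 TPM in female DMSO livers. Male BPAF livers had 0.85, 1.52 and 4290 TPM and male DMSO livers 7.03, 0.19 and 726 TPM. The values of 4290 and 726 TPM were both in male libraries numbered 3, and the libraries numbered 3 were also the highest of their groups in both female groups. The ileal bile acid transporter gene slc10a2 was at 29.3 TPM in male BPAF 3 and 2.93 TPM in male DMSO 3 and at most 0.3 TPM in the other 10 libraries. In male BPAF 3, fabp6 ranked above fabp3 among the FABP genes. No comparison passed for fabp6 (log2 -2.5 ± 2.05 for females against males over both treatments, SE, adjusted p = 0.305), and without both male libraries numbered 3 the difference was 0.64. fabp1a (ENSDARG00000019357) was listed at 0 in 10 libraries and had 0.26 TPM in male BPAF 3 and 1.1 TPM in male DMSO 3, too few to be tested.

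The TPM of the intestinal forms fabp1b.1, fabp2 and fabp6 were summed in each library and taken as log2(sum + 1). This value averaged 5.08 ± 1.93 in the 6 female libraries and 8.58 ± 2.89 in the 6 male libraries (SD), a difference of -3.50 with an exact permutation p of 0.0346. That test takes all libraries as independent and leaves out treatment and the link between same-numbered male libraries. The difference was -3.16 with the vitellogenins out of the totals (exact permutation p = 0.0541) and -2.16 without the male libraries numbered 3 (exact permutation p = 0.143). It also missed the threshold when female BPAF 2, female DMSO 1 or 3, any 1 male BPAF library or male DMSO 3 was left out (exact permutation p between 0.0519 and 0.0693). The difference was -4.40 without male DMSO 2 (exact permutation p = 0.00866). With fabp6 out of the sum, a setting added after seeing the data, it was -3.60 (exact permutation p = 0.0216).

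The brain form fabp7a (ENSDARG00000007697) was the FABP gene that ran the other way. It stood at 55.7, 24.4 and 45.4 TPM in female BPAF livers and 35.9, 120 and 60.3 TPM in female DMSO livers. The males had 33.6, 56.7 and 6.34 TPM under BPAF and 35.0, 10.7 and 9.6 TPM under DMSO. Among DMSO fish the sexes did not overlap, by a margin of less than 1 TPM between female DMSO 1 and male DMSO 1. Among BPAF fish they did. The share of all tested genes without overlap was not counted. Females were higher by log2 1.35 ± 0.52 over both treatments (SE, adjusted p = 0.0416), by 1.98 ± 0.74 among DMSO fish (adjusted p = 0.0695) and by 0.73 ± 0.74 among BPAF fish (adjusted p = 0.412). With trimmed-mean scaling the differences were 2.26 over both (adjusted p = 0.0078) and 2.71 among DMSO fish (adjusted p = 0.0341). On the deposited scale the call over both treatments was lost without female BPAF 1 or 3, female DMSO 2 or 3, male BPAF 3 or male DMSO 2 or 3 (adjusted p between 0.0616 and 0.0960), and that among DMSO fish was gained without male BPAF 3 (adjusted p = 0.0291). Of 8 glial and neuronal markers, gfap, elavl3 and sox10 were at 0.02 TPM or less in every library, and the sum of all 8 was 1.63 to 2.51 TPM in females and 4.58 to 12.4 TPM in males, most of it plp1b.

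For fabp11a (ENSDARG00000017299), female BPAF livers had 12.9, 9.73 and 4.16 TPM and female DMSO livers 5.88, 8.58 and 13.1 TPM. Male BPAF livers had 41.3, 15.4 and 11.6 TPM and male DMSO livers 11.8, 17.1 and 11.7 TPM. The ranges of the sexes overlapped, with male BPAF 1 far above the rest. The difference of log2 -0.86 ± 0.34 over both treatments passed narrowly (SE, adjusted p = 0.0481), was -0.20 relative to the median gene, and the difference was -0.000574 after trimmed-mean scaling and 0.03 after quantile normalization. The call of fabp11a was lost when any 1 of 9 libraries was left out, all but female BPAF 1, female DMSO 3 and male BPAF 3 (adjusted p between 0.0505 and 0.118). The 9 adipocyte markers summed to 54.1 to 95.5 TPM in females and 147 to 267 TPM in males, most of it lpl and cfd. Of the same list, adipoqa, adipoqb, lepa and plin1 were at 0.43 TPM or less in every library. The remaining markers cidec, pparg and lipea reached 3.69, 3.13 and 0.63 TPM in females and 6.73, 2.25 and 2.11 TPM in males.

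Together the 9 genes took 2.38% ± 0.339 of the nominal TPM total in females, against 7.64% ± 2.82 in males (SD over 6 libraries). The listed columns sum to slightly less than that total, and fabp10a made up most of the FABP sum in both sexes. Its share of the summed FABP TPM, which does not depend on the scaling to a fixed total, was 97.1% ± 0.881 in females and 96.3% ± 2.22 in males, a difference of 0.71 percentage points (exact permutation p = 0.468). The lowest shares were 93.5% in male BPAF 3 and 93.7% in male BPAF 1, where the intestinal forms took 5.51% and 2.34% of the sum, their highest shares of the 12 libraries. With the intestinal forms left out of the sum the shares were 97.3% in females and 98.0% in males, a difference of -0.66 (exact permutation p = 0.234).

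No FABP gene was called for BPAF against DMSO in either sex. In males 0 of 8 tested members passed, where 0.0527% of all tested genes, 6 in number, were called, and in females 0 of 8 passed, where 0% were called. At an unadjusted p under 0.05 limma gave 722 genes in males and 157 in females, none of them a member. The interaction, the female response minus the male response, was called for 0 of 8 members and 0% of all genes, with 368 genes at an unadjusted p under 0.05.

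The male values of the intestinal forms were the widest apart. fabp1b.1 averaged 513 ± 301 TPM in male BPAF livers and 111 ± 161 TPM in male DMSO livers (SD, n = 3 each), a log2 difference of 3.47 ± 1.77 (SE, adjusted p = 0.789). fabp2 averaged 238 ± 134 TPM in male BPAF livers and 65.1 ± 48.0 TPM in male DMSO livers, a difference of 2.18 ± 1.01 (adjusted p = 0.784). Its values did not overlap, by the narrow margin of 103 TPM in male BPAF 2 against 101 TPM in male DMSO 3. How many of all tested genes separated these groups was not counted. Summed with fabp6, the intestinal forms were higher in the BPAF library of all 3 same-numbered male pairs, by log2 2.89, 4.02 and 2.25, with a mean of 3.05 (exact permutation p = 0.3, and 0.25 in the paired test, the smallest that 3 pairs allow). This mean was 1.56 without male DMSO 2, 1.91 without male BPAF 3 and 4.6 without male DMSO 3. All 12 tested intestinal markers had positive differences in males as well, with a median of 1.68 against 0.24 over all genes, and 0 were called. Apart from apoa4b.1, these markers entered the test with the help of male libraries, and they varied together across libraries. The share of all genes with a positive difference was not counted, so this count has no weight and is a description. In females the log2 differences were -0.94 ± 1.77 for fabp1b.1 and -0.29 ± 1.01 for fabp2, and the interaction was -4.41 ± 2.5 for fabp1b.1 (SE, adjusted p = 0.995).

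For the liver form the values under BPAF and DMSO were closer. fabp10a differed by log2 0.26 ± 0.32 in females (SE, adjusted p = 1), where the 3 BPAF values lay above the 3 DMSO values, and by 0.15 ± 0.32 in males (adjusted p = 0.917). The female margin was narrow, 22387 TPM in female BPAF 3 against 21998 TPM in female DMSO 3, and such separation was not counted over all genes. In males the fabp10a difference was -0.19 with trimmed-mean scaling. fabp3 differed by 0.28 ± 0.26 in females and -0.09 ± 0.26 in males, and fabp10b by 0.03 ± 0.38 in females and -0.52 ± 0.38 in males. fabp7a differed by -0.68 ± 0.74 in females and 0.57 ± 0.74 in males, and fabp11a by -0.09 ± 0.49 in females and 0.52 ± 0.49 in males. fabp6 differed by 0.30 ± 2.90 in females and 0.51 ± 2.90 in males. The share of fabp10a in the FABP sum was 95.3% ± 2.91 in male BPAF livers and 97.4% ± 0.817 in male DMSO livers (exact permutation p = 0.4), and 97.2% ± 0.298 in female BPAF livers and 96.9% ± 1.33 in female DMSO livers (SD, n = 3 each, exact permutation p = 0.9).

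**Figure D4:**
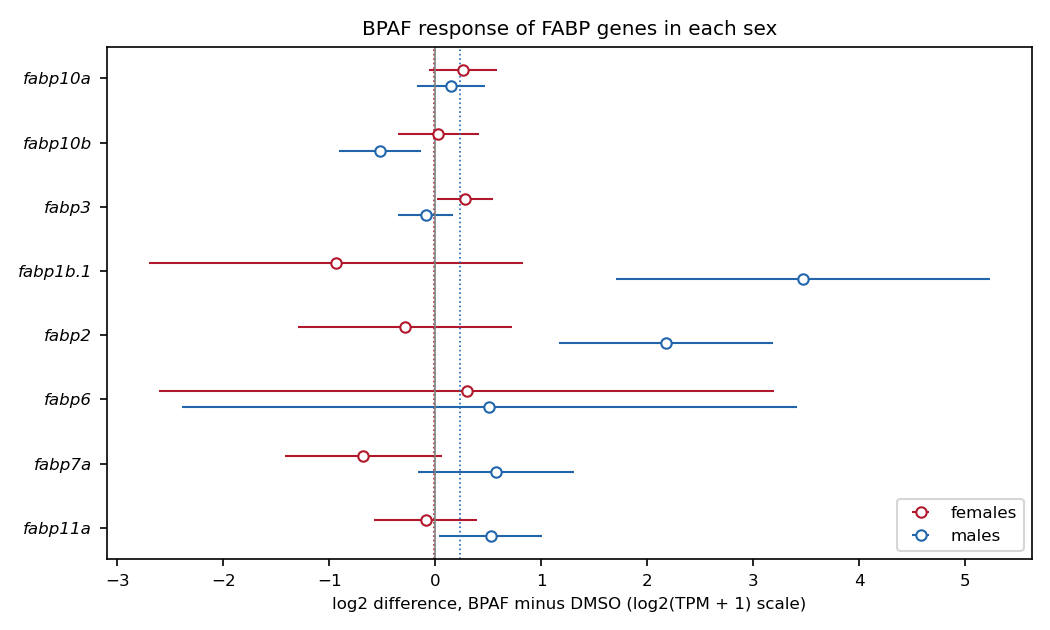
BPAF minus DMSO log2 difference of each tested FABP gene with its standard error, females above males within each gene, and dotted lines at the median of all tested genes (-0.01 in females and 0.24 in males). The open points mark that 0 of 8 passed in either sex, and fabp1b.1 and fabp2 in males have the largest values, 3.47 and 2.18.

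The genes whose pattern lay closest to each FABP gene were ranked by the smaller of the Pearson correlations of log2(TPM + 1) within the 6 female and within the 6 male libraries, as a description over libraries that share treatment and scaling. They are the highest of the 11389 tested genes. With so many genes and 6 libraries per sex, some high correlations arise by chance, and how many was not estimated. For fabp10a the closest was thrsp, a lipogenesis-related gene responsive to thyroid hormone in mammals (r = 0.828 in females and 0.856 in males), followed by si:dkey-263j23.1, crygm3, cyp2x12 and CR318603.2. For fabp1b.1 they were the acidic chitinase gene chia.3 (r = 0.989 and 0.996), the dicarboxylate transporter gene slc13a2, plac8.2, zgc:158846 and the apolipoprotein gene apoea. For fabp2 they were chia.2 (r = 0.952 and 0.955), which is also among the intestinal markers, wu:fa56d06, the amino acid transporter gene slc6a19a.1, apoea and krt97. For fabp3 they were the copper chaperone gene atox1 (r = 0.951 and 0.926), mcfd2, srd5a3, kdelr2a and sec63, of which mcfd2, kdelr2a and sec63 act in the early secretory pathway. For fabp7a they were poglut1 (r = 0.930 and 0.875), hao1, ifi45, spns2 and ttll3, and for fabp11a tnfb (r = 0.951 and 0.959), rock2a, si:ch1073-392o20.2, ncor1 and usp48. fabp1b.1 and fabp2 were themselves correlated at r = 0.891 in females and 0.938 in males.

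Genes that work with FABPs are given beside all tested genes, of which 55.4% were lower and 3.94% higher in females over both treatments on the deposited scale, and 13.7% lower and 13.5% higher after trimmed-mean scaling. List counts near these shares are no result about the list. Among the other intracellular lipid-binding proteins, 5 of 7 tested genes were lower and 0 higher in females over both treatments, with a median log2 difference of -1.30 against -0.66 for all genes, and 2 of 7 were lower after trimmed-mean scaling. The retinol-binding protein gene rbp2b was at 231 ± 38.0 TPM in female BPAF, 182 ± 70.8 TPM in female DMSO, 863 ± 206 TPM in male BPAF and 943 ± 286 TPM in male DMSO livers (SD, n = 3 each), a difference of log2 -2.13 ± 0.23 (SE, adjusted p = 8e-05). rbp5 was lower, with a difference of -1.91, as were rbp2a (-1.30) and rbp7b (-1.94). The calls of rbp2a and rbp7b were lost after trimmed-mean scaling, at -0.36 for rbp2a (adjusted p = 0.158) and -1.57 for rbp7b (adjusted p = 0.0555). Female means of rbp7b were 0.58 TPM (BPAF) and 0 TPM (DMSO), so it too needed male libraries, where it was higher, to enter the test. The test of rbp7b has no weight, and its difference is a description, also within the counts of this list.

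Among genes of fatty acid uptake, activation and acyl-CoA binding, 10 of 16 were lower and 0 higher, close to the 55.4% of all genes that were lower, and after trimmed-mean scaling 2 were lower and 3 higher. The acyl-CoA synthetase and transporter gene slc27a2b stood at 10.4 ± 1.49 TPM in female BPAF, 10.5 ± 2.09 TPM in female DMSO, 63.3 ± 17.3 TPM in male BPAF and 92.6 ± 19.9 TPM in male DMSO livers, a difference of log2 -2.74 ± 0.20 (SE, adjusted p = 8.07e-06). Its relative slc27a6 differed by -3.09 ± 0.24. Female means of slc27a6 were 0.62 TPM (BPAF) and 0.27 TPM (DMSO), so it needed male libraries, where it was higher, to enter the test. The test of slc27a6 therefore has no weight, and its difference is a description, also within the counts of this list. got2b, a mitochondrial aminotransferase gene, differed by -1.04 and slc27a2a by -0.95 on the deposited scale, and both calls were lost after trimmed-mean scaling, at -0.14 for got2b and -0.015 for slc27a2a. Among genes of triglyceride synthesis, storage and secretion, 15 of 18 were lower, with a median of -1.17, and 7 after trimmed-mean scaling, where 1 was higher. The acyltransferase gene dgat1a, the lipase genes pnpla2 and mgll and the droplet coat gene plin3 were lower, with differences of -2.16, -2.26, -2.13 and -1.82.

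Of transcription factors known to act on FABP genes or partners, 11 of 21 were lower and 2 higher in females over both treatments, with a median of -0.73, close to that of all genes, and 0 were lower and 5 higher after trimmed-mean scaling. hnf4a, a hepatocyte nuclear receptor, was at 14.2 ± 1.54 TPM in female BPAF, 14.9 ± 1.31 TPM in female DMSO, 32.4 ± 6.28 TPM in male BPAF and 29.6 ± 9.83 TPM in male DMSO livers, a difference of -1.01 on the deposited scale and -0.11 after trimmed-mean scaling (adjusted p = 0.691). The bile acid receptor gene nr1h4 differed by -1.02 on the deposited scale and by -0.19 after trimmed-mean scaling (adjusted p = 0.496). The estrogen receptor gene esr1 was higher in females by 4.2 ± 0.16 (SE), at 26.2 ± 3.47 TPM against 0.472 ± 0.150 TPM in males (SD). It entered the test only through females, so its test has no weight and its difference is a description, also within the counts above. Of PPAR targets and fatty acid oxidation genes, 17 of 21 were lower and 1 higher, with a median of -1.11, and 4 lower and 2 higher after trimmed-mean scaling. The carnitine palmitoyltransferase gene cpt1ab, which controls entry of fatty acids into mitochondria, was lower, with a difference of -2.32. Of bile acid transport genes, 3 of 5 were lower, again close to the share of all genes, among them the export pump gene abcb11a (-1.57) and slc51a (-1.18), and 1 after trimmed-mean scaling, where slc51a was at -0.26 and no longer called (adjusted p = 0.280).

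Among DMSO fish alone, the desaturase gene scd, which makes monounsaturated fatty acids, was the 1 PPAR target and oxidation gene that was higher in females, at 43.0 ± 17.5 TPM in female DMSO and 1.37 ± 2.09 TPM in male DMSO livers (SD, n = 3 each), a log2 difference of 4.49 ± 0.96 (SE, adjusted p = 0.0094). No gene of these 6 lists passed for BPAF against DMSO. Taking from each list the gene with its smallest p, these were in males crabp1a (log2 -2.28, adjusted p = 0.483), acsl1b (1.21, adjusted p = 0.432), mogat2 (1.46), nr0b2a (1.37), acadm (0.45) and fgf19 (1.0). In females they were rbp5 (0.76), acbd7 (-1.01), dgat1a (0.34), rxrga (-0.55), scd (-2.05) and abcb11a (0.68), each at an adjusted p of 1.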

How the data were processed

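Liver RNA of 12 zebrafish libraries was sequenced after TRIzol extraction and Illumina TruSeq library preparation, per the labels' protocols. The table deposited by the authors gives 1 value per gene and library for 32520 genes, read here as TPM because the columns have near-equal sums (978505 to 992375) and RSEM is among the tools; the file header names no unit. Per the submitters' processing notes, the tools were HISAT2 2.1.0, Cufflinks and RSEM, in no stated role. As the genome build is not given in the sources, no coordinates are printed. Columns of group means in the table were not used, and 0 columns were unassigned. TPM keep no depth, so no counting intervals or detection limits were computed, and a gene at 0 is said to be listed at 0. It is not stated how reads shared by duplicated genes were split, which leaves the low values of fabp10b beside fabp10a uncertain.

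log2(TPM + 1) was fitted by limma (version 3.58.1, R 4.3.3; variance prior with a trend on the mean level) in 1 model of a mean per group over all 12 libraries (8 residual degrees of freedom), on genes at 1 TPM or more in at least 3 libraries, with Benjamini-Hochberg adjustment over all 11389 genes, a threshold of 0.05 and no minimum fold; this step was tested on simulated data. Fold changes on this scale understate changes of low genes. Shares and sums were tested with 2-sided exact permutation tests over libraries (scipy 1.17.1; 924 splits for 6 against 6, 20 for 3 against 3). Those of 6 against 6 take libraries as independent and leave out treatment and the numbers of the libraries. Symbols are those of the table, and 9 of 9 FABP identifiers were found in the gene name table; fabp4a and fabp4b are there other names of fabp11a and fabp11b.

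The FABP members, the pathway lists and the markers were chosen with earlier results of these data known. Genes were named by rule: all members in every comparison, of each pathway list up to 4 called genes with the smallest p per comparison or the 1 with the smallest p where none passed, and the 5 genes of most similar pattern. Same-numbered male libraries deviated together (r = 0.327, 0.347 and 0.376), so the numbers were taken to pair male libraries; those of females (0.226, 0.0526 and 0.104) were not. Alternatives were trimmed-mean scaling, quantile normalization, removal of vitellogenins, pseudocounts of 0.1 and 5, no filter or 5 TPM, the replicate block, fits on the compared groups alone and leaving out each library. Leaving out both male libraries numbered 1 or 3, a block within each sex and fabp6 out of the sum were added after seeing the data. Protein, promoter and genome sequences were not used here, and 1 gene that the naming rule takes is not reported here.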

Additional observations from a re-analysis of the deposited data

Results flagged for a closer look

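Of 20 groups of 6 same-sex libraries checked for a value far from the rest, with gene levels as log2(TPM + 1), 1 was marked, where chance marks about 1 in 20. fabp11a in male BPAF 1 was at 41.3 TPM, the highest of the 6 males. On the log2(TPM + 1) scale its gap to the next male value took up 0.701 of the male range, above Dixon's limit of 0.625 for 6 values. Heart markers and the number of detected genes were also highest in that library, and their part in the fabp11a value was not tested.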

How the results depend on the processing

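The direction and call of fabp2 over both treatments held under all 22 alternatives run. Members called for females against males among BPAF fish numbered 0 with trimmed-mean scaling, 1 with quantile normalization and 3 without both male libraries numbered 1, against 5, and 3 to 6 when 1 library was left out (3 without male BPAF 1). Over both treatments they numbered 3 with trimmed-mean scaling and 4 without a filter, against 7, and 4 to 6 when 1 library was left out (4 without female BPAF 3 or male DMSO 3). Among all genes, 2655 calls among DMSO fish became 1037 with trimmed-mean scaling, 930 with quantile normalization, 1068 without vitellogenins and 1639 without a filter, 5424 among BPAF fish became 694, 664 and 2717 under the same 3 scalings, 6762 over both became 3101 after trimmed-mean and 3139 after quantile adjustment. With 1 library left out the calls among DMSO fish ranged from 909 (without female DMSO 1) to 3199 and those among BPAF fish from 2919 (without female BPAF 3) to 5412. With the filter at 5 TPM, which tests 5020 genes, 3146 were called among BPAF fish and 3679 over both. Under BPAF, 6 in males became 1 with trimmed-mean scaling and 73 without a filter, and without a filter 0 became 3 in females and 12 in the interaction. The cause was not tested.

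Signs turned without both male libraries numbered 3 for fabp1b.1 (0.068) and fabp6 (0.23) among DMSO fish, for fabp6 (1.04) and fabp7a (-0.14) among BPAF fish, for fabp6 over both (0.64), for fabp6 (-0.52) and fabp10a (-0.024) under BPAF in males and for the fabp6 interaction (0.81). Without both male libraries numbered 1 they turned for fabp11a (-0.078) and fgf19 (-0.033) in males and the fabp10a interaction (-0.28). Trimmed-mean scaling turned fabp11a among DMSO fish (0.13), fabp3 (0.18) and ehhadh (0.016) among BPAF fish and fabp10a in males (-0.19). Quantile normalization turned fabp11a among DMSO fish (0.21) and over both (0.025), and a pseudocount of 0.1 turned fabp6 (-0.66) and fabp10b (-0.21) under BPAF in females. The fabp10a share of females against males turned to -0.66 with the intestinal forms out. The summed intestinal forms were -3.16 with vitellogenins out and -2.16 without male libraries numbered 3, and in females under BPAF -0.57 without fabp6. None of the members whose sign turned had passed on the deposited scale except fabp3 among BPAF fish and fabp11a over both.

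With 1 library left out, the ranges that crossed 0 were, among DMSO fish, -3.14 to 0.068 for fabp1b.1 and -4.40 to 0.23 for fabp6; among BPAF fish, -4.55 to 1.04 for fabp6 and -0.14 to 1.35 for fabp7a; for BPAF in males, -0.26 to 0.089 for fabp3, -3.14 to 3.13 for fabp6, -0.047 to 1.44 for fabp7a and -0.19 to 0.65 for fabp10a; for BPAF in females, -2.60 to 0.81 for fabp1b.1, -1.03 to 0.65 for fabp2, -1.5 to 1.37 for fabp6, -0.27 to 0.19 for fabp10b and -0.39 to 0.32 for fabp11a; and for the interaction, -2.84 to 3.44 for fabp6 and -0.39 to 0.45 for fabp10a. The fabp10a share in females under BPAF ranged from -0.45 to 0.81 percentage points, and the summed intestinal forms from -4.40 to -2.74 for females against males, from 1.56 to 4.6 for BPAF in males and from -0.72 to 1.61 for BPAF in females.

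With the replicate block over all 12 libraries, 3, 5 and 6 members passed for females against males among DMSO fish, among BPAF fish and over both, fabp11a being lost (adjusted p = 0.0537), and 0 under BPAF. A block within each sex, which follows the male pairing, also gave 0 in males and females, and changed no other call of a member. Every male library correlated best with its own number, and not every female library did. Depth is unknown, so differences of fabp1a and fabp10b near 0 TPM cannot be bounded.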
